A study of Homo sapiens with 12 samples.

Results

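The linker histones H1 were followed through neural induction as 7 genes of a count table of 59050 gene symbols, chosen by name. HIST1H1A, HIST1H1B, HIST1H1C, HIST1H1D and HIST1H1E encode the replication-dependent proteins H1.1, H1.5, H1.2, H1.3 and H1.4, and H1F0 and H1FX encode the polyadenylated, replication-independent variants H1.0 and H1X. The starting cells were HUES8, a wild-type line of human embryonic stem cells (ESC) kept in mTeSR1 medium on Matrigel, and neural progenitor cells (NPC) were made from that single line. ESC were replated, held in mTeSR1 and then given neural induction medium for 7 days, a knockout DMEM/F12 base with N2, B27 without vitamin A, GlutaMAX, non-essential amino acids, 2-mercaptoethanol and antibiotics. The medium carried SB431542 (2.5 uM, which blocks the receptors of activin, Nodal and TGF-beta) and LDN193189 (0.05 uM, which blocks BMP receptors), with SB431542 left out in the last 2 days. In each state rRNA-depleted total RNA and ribosome-bound RNA were sequenced from 3 libraries, 12 in all. The method of ribosome isolation, nuclease step included, was not given in the sources used here.

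H1 proteins bind the nucleosome where DNA enters and leaves it and help chromatin fold. The HIST1H1 genes lie among the core histone genes, are transcribed mainly in S phase, and make mRNAs that end in a stem-loop bound by SLBP in place of a poly(A) tail, so their output follows DNA replication. H1F0 and H1FX make ordinary polyadenylated mRNAs outside that coupling, and H1.0 is known to build up in cells that slow their division or differentiate.

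The start regions of the genes are shown first because the replication-dependent members and H1FX differ there. All 5 HIST1H1 genes lie within 1.85 Mb of chromosome 6, at chr6:26017032-26017787 (HIST1H1A, minus strand), chr6:26055740-26056470 (HIST1H1C, minus), chr6:26156329-26157115 (HIST1H1E, plus), chr6:26234212-26234987 (HIST1H1D, minus) and chr6:27866792-27867588 (HIST1H1B, minus). H1F0 lies at chr22:37805229-37807432 and H1FX at chr3:129314771-129316286 on the minus strand. The 140 bases before the annotated start are printed from RefSeq (GRCh38.p14) for the 6 members with an entry, all but H1F0, 5′ to 3′ on the gene's own strand. They span chr6:26017788-26017927 for HIST1H1A, chr6:27867589-27867728 for HIST1H1B, chr6:26056471-26056610 for HIST1H1C, chr6:26234988-26235127 for HIST1H1D, chr6:26156189-26156328 for HIST1H1E and chr3:129316287-129316426 for H1FX. Capitals mark every match, on either strand, to AAACACA (the core of the H1 box, a promoter element of H1 genes), to CCAAT (the box bound by the factor NF-Y), to TATAAA (the usual core of the TATA box) or to GGGCGG (the binding letters of the factor SP1).

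HIST1H1A: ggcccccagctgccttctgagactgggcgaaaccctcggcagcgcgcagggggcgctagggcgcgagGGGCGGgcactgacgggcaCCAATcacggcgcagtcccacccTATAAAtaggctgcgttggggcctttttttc
HIST1H1B: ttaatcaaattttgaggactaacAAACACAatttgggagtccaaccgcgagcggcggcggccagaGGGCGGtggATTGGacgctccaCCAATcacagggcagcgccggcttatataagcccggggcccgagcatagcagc
HIST1H1C: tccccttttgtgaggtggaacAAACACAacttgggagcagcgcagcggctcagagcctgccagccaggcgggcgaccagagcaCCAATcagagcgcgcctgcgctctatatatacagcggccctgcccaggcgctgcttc
HIST1H1D: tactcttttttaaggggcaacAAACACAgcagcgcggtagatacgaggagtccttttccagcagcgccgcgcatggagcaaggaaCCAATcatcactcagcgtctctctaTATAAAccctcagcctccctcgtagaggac
HIST1H1E: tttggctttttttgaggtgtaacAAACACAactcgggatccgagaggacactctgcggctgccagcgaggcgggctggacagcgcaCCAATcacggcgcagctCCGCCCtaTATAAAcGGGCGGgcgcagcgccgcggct
H1FX: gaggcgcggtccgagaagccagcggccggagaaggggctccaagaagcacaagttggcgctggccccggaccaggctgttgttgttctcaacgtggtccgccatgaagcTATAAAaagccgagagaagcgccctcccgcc

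In 4 of the promoters, HIST1H1B, HIST1H1C, HIST1H1D and HIST1H1E, AAACACA began at −119 to −117 relative to the start, and CCAAT followed at −57 to −53. HIST1H1A had CCAAT at −54, with AAACACA on the opposite strand only, at −183. H1FX had TATAAA at −31 and none of the other motifs in its window. Among all 35116 RefSeq windows of the same length (250 bases before to 50 after the start), 5.64% held AAACACA, 34.6% CCAAT, 11.5% TATAAA and 45.0% GGGCGG on either strand. The H1 box core was thus the rarest of these motifs. HIST1H1B, HIST1H1C, HIST1H1D and HIST1H1E shared it at like positions, and HIST1H1A did not. H1F0 had no window, so whether the box sets the replication-dependent members apart cannot be told. These matches describe letters, not binding.

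Total counts were 19529738 to 35117370 in the RNA libraries and 2422756 to 4451196 in the ribosome-bound libraries, where 3 counts, the limit for a gene with none, equal 0.684 to 1.30 CPM (TMM-scaled counts, normalized within each assay to one library size). ESC replicate 3 of total RNA and ESC replicate 2 of ribosome-bound RNA stood apart from the other replicates of their groups (Pearson r across genes of 0.954 to 0.963 and of 0.928 to 0.941, against 0.996 and 0.977 for the remaining pair). Relative to the other ESC libraries, RNA replicate 3 was lower by a median log2 difference of −0.87 in the 5 HIST1H1 genes and −1.20 in 50 replication-dependent core histone genes, but lay at 0.08 in 20 S phase and proliferation genes. Ribosome-bound replicate 2 lay at −0.44 in the HIST1H1 genes, 0.45 in the core histone genes and −0.75 in the S phase genes. Stem cell and neural progenitor markers moved with the labelled states. The summed RNA level of POU5F1, NANOG, TDGF1 and GDF3 was 1828 to 2402 CPM in ESC and 24.6 to 26.3 in NPC, and that of PAX6, SOX1, OTX2 and LHX2 was 11.6 to 13.6 and 177 to 185. Markers of other fates were summed in NPC RNA as well. The 4 neural crest genes stood at 166 to 167 CPM (8.28 to 17.4 in ESC). Most of that was PAX3 and TFAP2B, 513-fold and 447-fold higher in NPC. FOXD3 fell (log2 −1.26) while the other 3 rose. The 4 neuronal genes stood at 8.60 to 10.3 (16.3 to 17.7 in ESC), with DCX and TUBB3 lower in NPC and ELAVL3, itself low, 4.73-fold higher. The 4 mesoderm and endoderm genes summed to only 0.280 to 0.327 (10.02 to 10.9 in ESC). The 4 trophoblast and surface ectoderm genes stood at 2093 to 2233 (1832 to 2722 in ESC). That last sum was almost wholly KRT8 and KRT18, and in it TFAP2A was 36.6-fold and GATA3 5.80-fold higher in NPC. On ribosomes the stem cell genes summed to 499 to 1013 CPM in ESC and 2.81 to 3.87 in NPC. The neural progenitor genes summed to 51.2 to 57.5 and 124 to 149 there. Neural crest genes stood at 28.6 to 37.0 and 225 to 267, above the neural progenitor genes in NPC. Mesoderm and endoderm genes stood at 229 to 272 and 1.40 to 3.87, and neuronal genes at 77.6 to 142 and 29.0 to 32.3. No marker was at 0 over a whole group, and the part of cells of other fates in the H1 values was not tested. In bulk samples fewer cells of a type and less RNA per cell cannot be told apart.

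The first comparison asked how H1 transcripts changed in abundance. In total RNA of NPC, HIST1H1A and HIST1H1D fell and H1F0 and H1FX rose. HIST1H1B, HIST1H1C and HIST1H1E did not pass the test in the main fit, which had no replicate block. H1F0 made the largest change of the 7. HIST1H1D, the H1 gene with the highest RNA level per length in both states, stood at 654, 672 and 523 CPM in ESC replicates 1, 2 and 3 and at 380, 415 and 368 CPM in NPC. The 1.59-fold lower level of HIST1H1D in NPC passed (log2 −0.67 ± 0.12, SE, edgeR's quasi-likelihood F test, Benjamini-Hochberg adjusted over all genes, adjusted p = 0.00190). HIST1H1A, a variant of few tissues, was low throughout, at 4.19, 4.55 and 2.56 CPM in ESC and 2.14, 1.43 and 2.02 in NPC. It was 2.04-fold lower in NPC (−1.03 ± 0.26, adjusted p = 0.0121), a call that ended without NPC replicate 2 (−0.85, adjusted p = 0.0528).

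The other replication-dependent members spread more widely in ESC. HIST1H1B read 492, 584 and 250 CPM in ESC and 254, 296 and 246 in NPC, HIST1H1C read 214, 257 and 129 against 142, 153 and 138, and HIST1H1E read 138, 144 and 46.7 against 86.6, 94.0 and 85.04. ESC replicate 3 lay within the NPC range for HIST1H1B and below it for HIST1H1C and HIST1H1E, while both other ESC libraries lay above every NPC library in all 3 genes. The log2 differences were −0.74 ± 0.27 for HIST1H1B (adjusted p = 0.0519), −0.47 ± 0.22 for HIST1H1C (adjusted p = 0.114) and −0.31 ± 0.36 for HIST1H1E (adjusted p = 0.502, all edgeR). Without ESC replicate 3 they were −1.02, −0.70 and −0.67, with adjusted p-values of 2.36e-20, 4.03e-14 and 8.42e-14. Deviations of same-numbered RNA libraries correlated across genes, but whether the numbers pair libraries is not settled. A replicate block, run as an alternative, brought HIST1H1B past the threshold (−0.66, edgeR adjusted p = 0.0177). Thus 2 of the 5 HIST1H1 genes were called lower with all libraries and no block. The block gave 3, with 26.7% of all genes called lower. Without ESC replicate 3 it was 5 of 5, where 34.7% of all 19340 genes tested were called lower. With all libraries and no block the background was 26.2% of the 18631 genes tested called lower and 26.4% called higher, 52.6% in all.

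The replication-independent variants went the other way. H1F0 rose from 34.9, 40.3 and 32.1 CPM in ESC to 177, 193 and 179.6 CPM in NPC, 5.12-fold (log2 2.35 ± 0.12, adjusted p = 2.69e-06). H1FX rose from 63.7, 74.1 and 34.9 CPM to 123, 128 and 108 CPM, 2.08-fold (1.05 ± 0.25, adjusted p = 0.00812). Neither gene's groups overlapped, and how common that was among all genes was not counted here. ESC replicate 3 was the lowest ESC library for H1FX as well, and the rise was 0.79 without it. H1FX shares 16 bases with the antisense RNA H1FX-AS1, which stood at 2.25 to 6.09 CPM in RNA, and whether counting used strand was not stated in those sources.

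**Figure D1:**
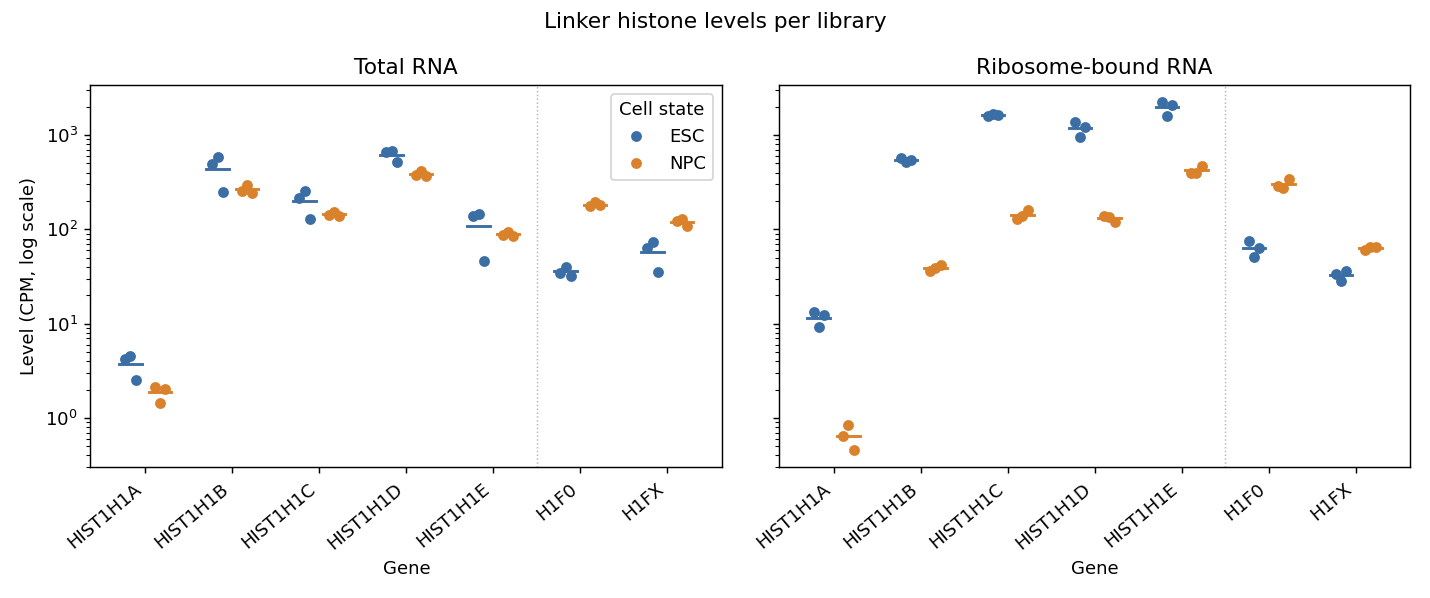
Level of each H1 gene in every library, as CPM (TMM-scaled within each assay) on a log axis, with 1 point per library and the 4 groups side by side. The HIST1H1 genes drop by a wide margin between the ribosome-bound groups, such as HIST1H1C from 1586 to 1655 CPM in ESC to 128 to 161 CPM in NPC, while H1F0 and H1FX sit higher in NPC in both assays.

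The next comparison took the same genes in ribosome-bound RNA. All 7 genes were called, with the 5 HIST1H1 genes lower in NPC by 4.67-fold to 17.4-fold and both H1F0 and H1FX higher. Here 30.3% of the 12250 genes tested were called lower and 31.6% higher, 61.8% in all. HIST1H1E, which encodes H1.4 and had the highest mean ribosome-bound H1 level per length in both states, went from 2227, 1578 and 2094 CPM to 396, 398 and 469.88 CPM (log2 −2.22 ± 0.24, edgeR adjusted p = 1.30e-05). HIST1H1C, encoding H1.2, went from 1586, 1655 and 1633 CPM to 128, 139 and 161 CPM, 11.4-fold lower (−3.51 ± 0.23, adjusted p = 5.40e-07). Of this pair, HIST1H1E kept the larger share of its ESC level on ribosomes.

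HIST1H1D fell from 1382, 951 and 1205 CPM to 140.05, 134 and 119 CPM, 8.99-fold (−3.17 ± 0.24, adjusted p = 1.13e-06). HIST1H1B, encoding H1.5, fell from 566, 513 and 545 CPM to 36.1, 39.3 and 42.2 CPM, 13.8-fold (−3.78 ± 0.21, adjusted p = 2.58e-07). In both genes every ESC library was several times above every NPC library. HIST1H1A had 42, 21 and 46 counts in ESC and 2, 3 and 2 in NPC. It passed the filter on low counts only through ESC, so the other HIST1H1 genes alone, 4 of 4 lower, carry the count. Its fitted change was −4.12 ± 0.44 (adjusted p = 1.175e-05), and the ratio of summed, depth-scaled counts was 18.7 in favour of ESC, with an exact 95% counting interval of 8.78 to 47.6 that covers counting error only.

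H1F0 rose on ribosomes from 74.8, 50.7 and 63.1 CPM to 285, 273 and 343 CPM, 4.76-fold (2.25 ± 0.22, adjusted p = 5.97e-06), and H1FX from 33.6, 28.2 and 35.9 CPM to 60.7, 64.9 and 65.6 CPM, 1.95-fold (0.96 ± 0.19, adjusted p = 9.29e-04). No member's groups overlapped, but the share of all genes without overlap was not counted here. Without ESC replicate 2 the HIST1H1 changes ranged from −4.27 (HIST1H1A) to −2.37 (HIST1H1E) and those of H1F0 and H1FX were 2.11 and 0.86.

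**Figure D2:**
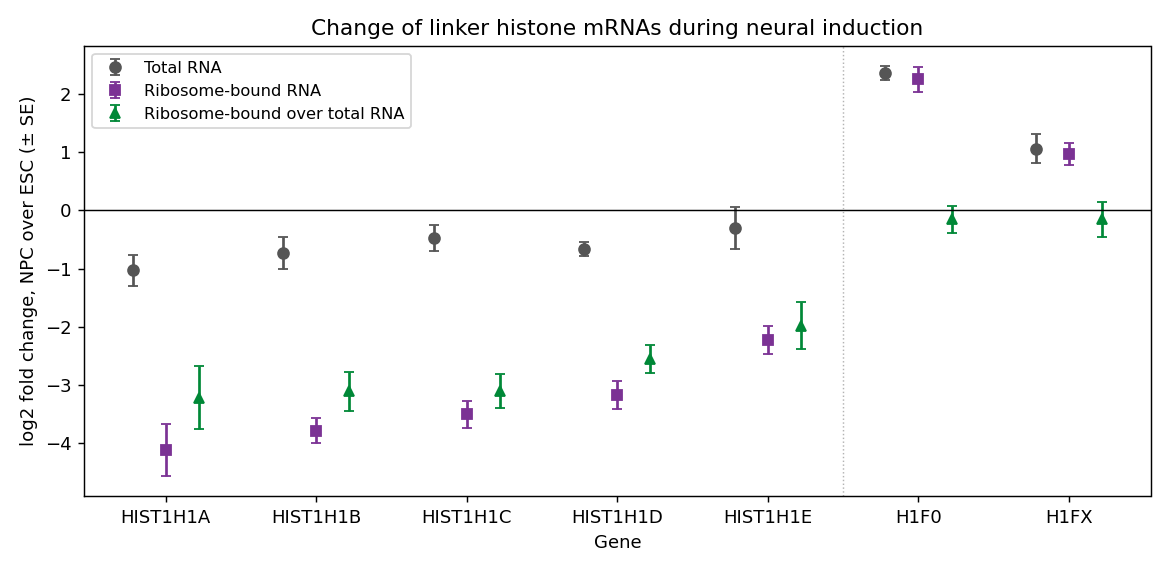
Log2 fold change of NPC over ESC for each H1 gene in total RNA, in ribosome-bound RNA and in their ratio, with bars of 1 standard error from the edgeR fits. The 5 HIST1H1 genes lie between −1.03 and −0.31 in RNA and between −4.12 and −2.22 on ribosomes, whereas H1F0 and H1FX have nearly the same change in both assays.

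Translational efficiency (TE), a gene's ribosome-bound level over its RNA level, was compared between the states as the interaction of assay and state in a single fit of all 12 libraries. It asks whether a gene's ribosome-bound level changed by more or less than its RNA, relative to the typical gene. TE fell in all 5 HIST1H1 genes (4 of 4 without HIST1H1A) and was not called for H1F0 or H1FX. By comparison 19.0% of the 11866 genes tested were called lower and 22.9% higher, 41.9% in all. The log2 change was −3.22 ± 0.55 for HIST1H1A (adjusted p = 2.82e-04), −3.11 ± 0.33 for HIST1H1B (adjusted p = 5.21e-06) and −3.10 ± 0.29 for HIST1H1C (adjusted p = 2.15e-06), about as large as one another. HIST1H1D changed by −2.55 ± 0.25 (adjusted p = 2.76e-06) and HIST1H1E by −1.98 ± 0.41 (adjusted p = 0.00131, all edgeR). Differences between members were not tested.

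H1F0 stood at −0.16 ± 0.24 (adjusted p = 0.614) and H1FX at −0.15 ± 0.30 (adjusted p = 0.706), whose sign turned without RNA ESC replicate 3 (0.09, adjusted p = 0.731). Among the genes tested, 0.405% had a lower change than HIST1H1A, 0.919% lower than HIST1H1D and 1.99% lower than HIST1H1E, against 46.2% for H1F0. The HIST1H1 values lay between −3.03 (HIST1H1A) and −1.63 (HIST1H1E) without RNA ESC replicate 3, and between −3.35 and −2.11 for the same genes without ribosome-bound ESC replicate 2.

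Within each state the ratio placed the members far apart. In ESC all 5 HIST1H1 genes and H1F0 were above the typical gene and H1FX below it, where 30.6% of genes were called higher and 37.5% lower, 68.2% in all. HIST1H1E was 21.6 times as abundant on ribosomes as in RNA (log2 4.43 ± 0.33) and HIST1H1C 9.75 times (3.29 ± 0.22). HIST1H1A followed at 1.88 ± 0.27, HIST1H1D at 1.19 ± 0.17 and H1F0 at 1.07 ± 0.17, with adjusted p-values of 4.11e-05 or less for these 5 genes (edgeR). HIST1H1B was nearer to even, at 0.56 ± 0.22 (adjusted p = 0.0369; 0.29 without RNA ESC replicate 3), and H1FX stood at −0.56 ± 0.22 (adjusted p = 0.0334; −0.80 without that library). These calls ended under 6 and 8 of 17 alternatives, with adjusted p-values of up to 0.164 and 0.176.

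In NPC all 5 HIST1H1 genes had lower values than in ESC, with HIST1H1E again the highest and HIST1H1B the lowest. Relative to the typical gene, HIST1H1E was still called higher on ribosomes, 5.47 times its RNA (2.45 ± 0.30, edgeR adjusted p = 3.20e-06). H1F0 was called higher as well (0.91 ± 0.17, adjusted p = 1.51e-04). HIST1H1C stood at 0.18 ± 0.20 (adjusted p = 0.446; −0.02 when libraries were scaled by total counts only). HIST1H1A (−1.34 ± 0.51, adjusted p = 0.0297), HIST1H1D (−1.36 ± 0.18, adjusted p = 5.41e-06) and HIST1H1B (−2.56 ± 0.24, adjusted p = 1.84e-07) were called lower on ribosomes than in RNA, as was H1FX (−0.71 ± 0.21, adjusted p = 0.00758). In this state 30.8% of genes were called higher and 33.3% lower, 64.1% in all. HIST1H1D thus went from above the typical gene to below it under the 17 alternatives as well. HIST1H1A and HIST1H1B did so with all libraries, but the NPC call of HIST1H1A, which rests on 7 ribosome-bound counts, ended under 6 of 17 alternatives (adjusted p up to 0.140), as did the ESC call of HIST1H1B.

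**Figure D3:**
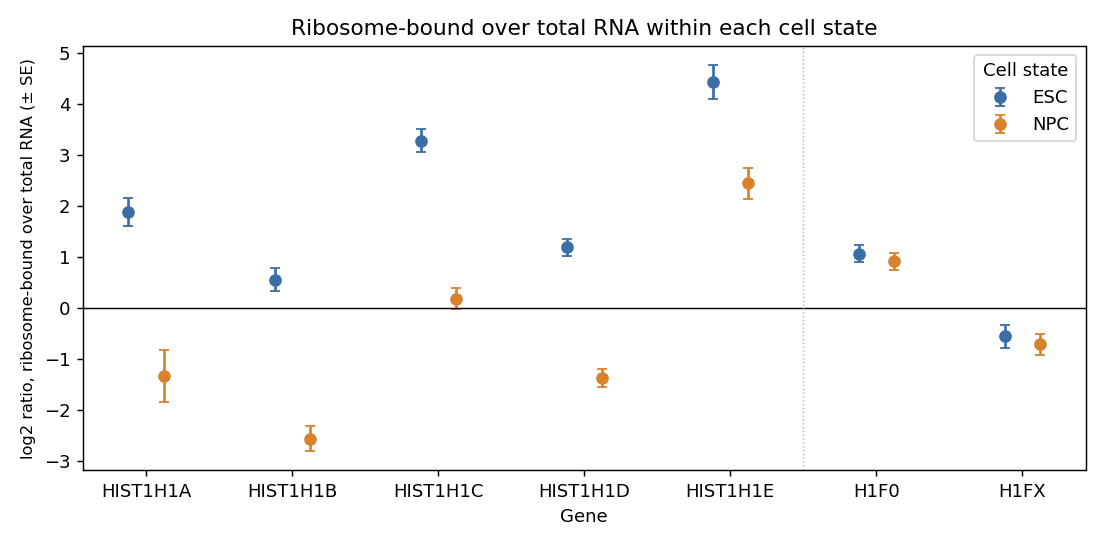
Ratio of ribosome-bound RNA over total RNA of each H1 gene in ESC and in NPC on a log2 scale, with bars of 1 standard error from the 12-library edgeR fit. HIST1H1E is highest in both states (4.43 and 2.45), HIST1H1B goes from 0.56 to −2.56, and the values of H1F0 and H1FX in the 2 states lie close together.

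Levels were next compared between genes as CPM per kilobase of gene. In ESC RNA HIST1H1D led at 794 ± 105 (SD, n = 3), followed by HIST1H1B at 554 ± 217, HIST1H1C at 273 ± 89.2 and HIST1H1E at 139 ± 69.2, each overlapping its neighbour. H1FX (38.0 ± 13.4), H1F0 (16.2 ± 1.90) and HIST1H1A (4.98 ± 1.41) came below without overlap. In NPC RNA the order of the first 4 was kept and their neighbours no longer overlapped, from 499.9 ± 31.7 for HIST1H1D to 333 ± 34.2, 198 ± 10.8 and 113 ± 6.09. H1F0 (83.1 ± 3.97) and H1FX (78.9 ± 6.85) then overlapped each other, and HIST1H1A stayed last at 2.46 ± 0.506.

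On ribosomes the order was another one. HIST1H1E (2499 ± 435) and HIST1H1C (2223 ± 48.2) led in ESC with overlapping libraries, then came HIST1H1D (1520 ± 279), HIST1H1B (679 ± 33.6), H1F0 (28.5 ± 5.46) and H1FX (21.5 ± 2.61, overlapping H1F0), with HIST1H1A last (15.3 ± 2.87). In NPC HIST1H1E led alone at 535 ± 53.5, and HIST1H1C (195 ± 22.9), HIST1H1D (169 ± 13.9) and H1F0 (136 ± 16.95) formed a group in which neighbours overlapped. HIST1H1B (49.2 ± 3.77) and H1FX (42.0 ± 1.76) lay below them and HIST1H1A (0.857 ± 0.256) at the foot. H1F0, below HIST1H1B on ESC ribosomes, lay above it on NPC ribosomes. The place of H1F0 depends on the division by gene span. Undivided, its mean on NPC ribosomes was 300 CPM, below HIST1H1E (421) but above HIST1H1C (143) and HIST1H1D (131).

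Summed per length over the 7 genes, H1 RNA was 1992, 2205 and 1263 CPM per kb in ESC and 1276, 1411 and 1236 in NPC, groups that overlapped. On ribosomes the sum fell from 7564, 6193 and 7199.8 CPM per kb to 1075, 1085 and 1223, a mean 6.19-fold lower, with no overlap. The HIST1H1 genes alone were 1.54-fold lower in RNA and 7.30-fold lower on ribosomes, while H1F0 and H1FX together were 2.99-fold and 3.56-fold higher. These sums are descriptions over chosen genes, with no test.

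The composition of H1 mRNA shifted with these changes. HIST1H1 genes made up 97.0% ± 0.0710 (SD, n = 3) of the summed level per length in ESC RNA and 87.6% ± 0.210 in NPC RNA. On ribosomes the share was 99.3% ± 0.0367 in ESC and 84.2% ± 0.457 in NPC. H1F0 grew from 0.926% ± 0.198 to 6.36% ± 0.208 in RNA and from 0.406% ± 0.0391 to 12.05% ± 0.658 on ribosomes, and H1FX from 2.05% ± 0.203 to 6.03% ± 0.288 and from 0.307% ± 0.0188 to 3.73% ± 0.202.

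Within the ribosome-bound pool HIST1H1E took 35.6% ± 2.78 in ESC and 47.4% ± 1.22 in NPC, so its share per length went up although its level fell. HIST1H1C went from 32.1% ± 4.05 to 17.3% ± 0.853, HIST1H1D from 21.6% ± 1.88 to 15.1% ± 2.24 and HIST1H1B from 9.76% ± 0.551 to 4.36% ± 0.166. In RNA HIST1H1D took 45.0% ± 7.40 in ESC and 38.2% ± 0.251 in NPC, and HIST1H1E 7.26% ± 2.23 and 8.61% ± 0.138. The level per length of the HIST1H1 genes together was 108 ± 20.6 times that of H1F0 in ESC RNA and 13.8 ± 0.446 times in NPC RNA. On ribosomes that ratio went from 246 ± 23.2 to 7.00 ± 0.421. Without division by gene length, which counts the longer H1F0 and H1FX more, the HIST1H1 shares were 93.6% and 74.6% in RNA and 98.2% and 66.9% on ribosomes. The HIST1H1E share on ribosomes was then 36.1% in ESC and 38.3% in NPC. Its libraries overlapped between the states, at 32.98% to 37.85% and 37.81% to 39.12%. In those terms H1F0 went from 2.54% to 15.4% in RNA and from 1.15% to 27.3% on ribosomes, and H1FX from 3.86% to 10.04% and from 0.601% to 5.81%.

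**Figure D4:**
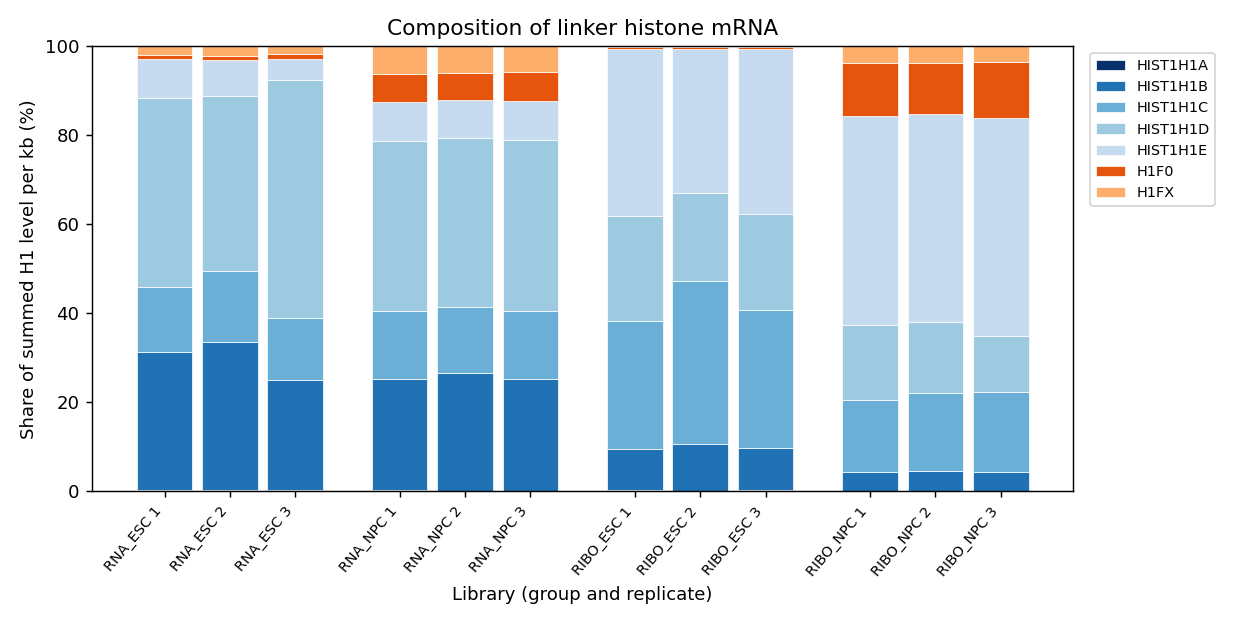
Share of each H1 gene in the summed H1 level per kb, in percent, as 1 stacked bar for each of the 12 libraries. HIST1H1E and HIST1H1C fill most of the ribosome-bound bars of ESC, HIST1H1D and HIST1H1B most of the RNA bars, and H1F0 (12.05% on average) is widest in the ribosome-bound bars of NPC.

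The HIST1H1 genes were set beside the other histone genes. Replication-dependent core histone genes were taken by the start of their symbol, 69 in the table. A few may therefore be pseudogenes or genes that do not depend on replication. Of the 56 tested in RNA, 2 would not have passed the low-count filter on NPC libraries alone. Among the 54 others 20 fell and 0 rose at an adjusted p under 0.05 (edgeR), against 26.2% and 26.4% of all genes. The median of these 54 genes was −0.60, against −0.67 for the 5 HIST1H1 genes and 0.03 for all genes. ESC replicate 3, low in core histone RNA, was part of this count, and the count without it is not given here. The summed RNA level of the 69 genes was 5404 to 10397 CPM in ESC and 5591 to 6304 in NPC, so the groups overlapped. On ribosomes 50 core histone genes were tested, of which 6 would not have passed the low-count filter on NPC libraries alone, as HIST1H1A would not. The 44 others all fell, against 30.3% of all genes, with a median of −3.51 against −3.34 for the 4 other HIST1H1 genes and −0.01 for all genes. For TE 48 were tested, and the 43 that passed on NPC libraries alone all fell, against 19.0% of all genes, with a median of −2.86 against −2.83 and −0.05. The ribosome-bound fall of HIST1H1E (−2.22) lay just above the range of the 44 core histones, −5.30 to −2.31, and its TE change of −1.98 lay within that of the 43, −4.29 to −1.72.

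Core histone variants with polyadenylated mRNAs did not move as a block. In RNA 2 of 9 rose and 2 fell, against 26.4% and 26.2% of all genes. The rises were H3F3B, a gene of the replacement histone H3.3 (0.71 ± 0.08), and H2AFY2, a gene of macroH2A (0.45 ± 0.11). H2AFJ (−1.87 ± 0.33) and H2AFZ, encoding H2A.Z (−0.60 ± 0.10), fell. On ribosomes 2 of 8 rose and 3 fell, against 31.6% and 30.3% of all genes. H2AFY2 rose by 1.76 ± 0.19 and H3F3B by 0.90 ± 0.19, and the largest fall was that of H2AFJ (−2.30 ± 0.23). For TE 1 of 8 rose, H2AFY2 (1.25 ± 0.21), and 1 fell, H2AFX (−1.29), against 22.9% and 19.0% of all genes. Whether the list differed from those shares was not tested. None of them rose as far in RNA as H1F0.

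**Figure D5:**
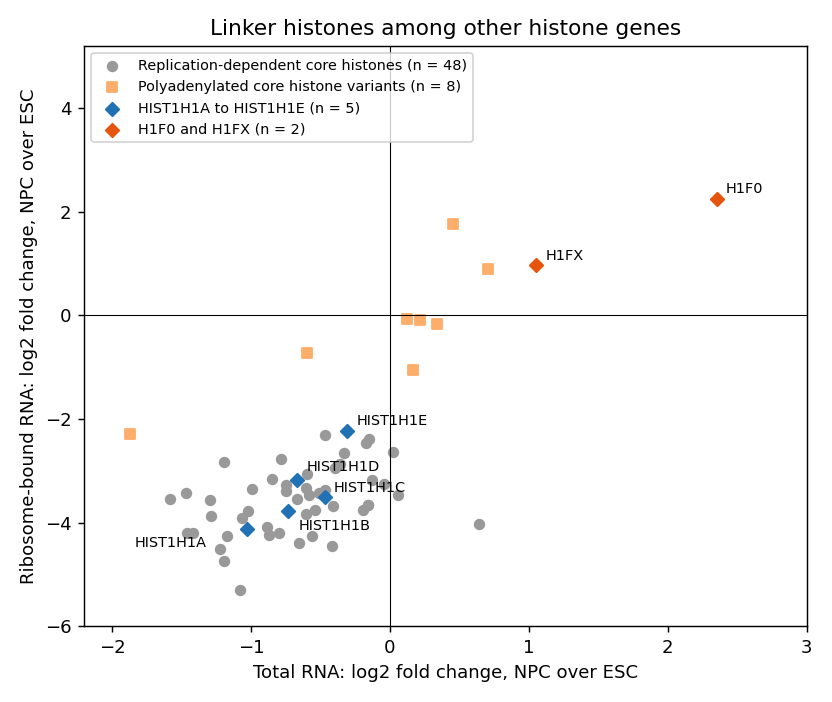
Log2 fold change of NPC over ESC in total RNA (x axis) against ribosome-bound RNA (y axis) for 48 replication-dependent core histone genes, 8 polyadenylated core variants and the 7 H1 genes, each point being 1 gene. The HIST1H1 genes sit among the core histones, between −4.12 and −2.22 on the y axis, with HIST1H1E at the upper edge, and H1F0 lies alone at 2.35 and 2.25.

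Factors that make or process histone mRNAs changed in both directions, with 6 of 23 falling in RNA, a share close to the 26.2% of all genes, and 2 rising against 26.4% of all genes. Those that rose were ZNF473, which helps cut histone pre-mRNA (0.67 ± 0.12), and CDK2, the S phase kinase (0.47 ± 0.10), and the falls were led by the transcription factor E2F1 (−0.75 ± 0.19) and the cap-binding protein NCBP1 (−0.58 ± 0.13). On ribosomes 5 of 22 rose (31.6% of all genes), led by CASP8AP2 (2.07 ± 0.36) and E2F1 (1.13 ± 0.26), and 4 fell (30.3% of all genes), led by the cleavage factors CPSF2 (−0.93 ± 0.20) and WDR33 (−0.86 ± 0.27). For TE 4 of 22 rose (22.9% of all genes), CASP8AP2 (1.94 ± 0.43) and E2F1 (1.82 ± 0.32) the most, and 2 fell (19.0% of all genes), CDK2 (−0.90 ± 0.25) and HINFP (−0.76 ± 0.23), an activator of histone H4 genes. SLBP, which binds the stem-loop and was singled out here for that role, stood at 38.2 ± 0.737 CPM (SD, n = 3) in ESC RNA and 35.8 ± 1.58 in NPC RNA, and at 53.6 ± 3.27 and 71.3 ± 5.15 on ribosomes. It passed in neither RNA (edgeR adjusted p = 0.487) nor ribosome-bound RNA (adjusted p = 0.0667), nor for TE (adjusted p = 0.0835). On ribosomes it passed under 2 of 12 alternatives, the 12-library fit (adjusted p = 0.0285) and without ESC replicate 2 (adjusted p = 0.0489), and for TE under 1 of 17, DESeq2 (adjusted p = 0.0437).

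A further list held S phase and proliferation genes, cell cycle inhibitors included. In RNA 12 of 20 fell, against 26.2% of all genes, led by CCNE1, the cyclin of S phase entry (−1.68 ± 0.13), and RRM2, a subunit of ribonucleotide reductase (−1.20 ± 0.12). The 4 that rose, against 26.4% of all genes, included the cell cycle inhibitors CDKN1A (1.93 ± 0.18) and CDKN1C (1.176 ± 0.14). The summed level of the 20 genes was 5001 to 5114 CPM in ESC RNA and 3460 to 3466 in NPC RNA. On ribosomes 8 of 19 fell, against 30.3% of all genes, with RRM2 at −1.76 ± 0.22 and MCM5, part of the replicative helicase, at −1.49 ± 0.27, and 4 rose, against 31.6%, led by CDKN1A (3.22 ± 0.23) and the proliferation marker MKI67 (2.16 ± 0.30). Their sum there overlapped between states, at 3318 to 6429 CPM in ESC and 4265 to 4587 in NPC. For TE 2 of 19 rose, MKI67 and CDKN1A, and 0 fell (edgeR), against 22.9% and 19.0% of all genes. The median change of the list was −0.56 in RNA, −0.53 on ribosomes and −0.17 for TE, and its part in the H1 values was not tested.

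Proteins that carry H1 or compete with it for nucleosomes made up the last list. In RNA 11 of 20 fell, against 26.2% of all genes, led by HMGN5 (−2.54 ± 0.37) and HMGB3 (−1.71 ± 0.15), and 2 rose, against 26.4%, HMGB2 (0.95 ± 0.11) and HMGN2 (0.31 ± 0.10). HMGN and HMGB proteins bind nucleosomes or linker DNA and weaken H1 binding. On ribosomes 7 of 20 rose, a share close to the 31.6% of all genes, led by HMGN2 (1.95 ± 0.23) and HMGN4 (1.53 ± 0.22), and 2 fell, against 30.3%, HMGB3 (−1.43 ± 0.22) and HMGN3 (−0.92 ± 0.27). TE rose in 8 of 20, against 22.9% of all genes, led by HMGN5 (3.25 ± 0.55) and HMGA2 (1.64 ± 0.30), and fell in 0, against 19.0% (edgeR). The list's median TE change was 0.76, opposite in sign to that of the HIST1H1 genes.

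Germline linker histones were also looked up. HIST1H1T, the testis variant, was low, at 3.53, 3.39 and 3.12 CPM in ESC RNA and 4.58, 5.18 and 4.19 in NPC RNA. It was 1.39-fold higher in NPC RNA (log2 0.47 ± 0.16, edgeR adjusted p = 0.0345), a call lost under 9 of 12 alternatives, the replicate block (adjusted p = 0.0520) and DESeq2 (adjusted p = 0.0702) among them, with adjusted p-values of up to 0.138. On ribosomes it read 9.11, 4.77 and 11.1 CPM in ESC and 2.58, 3.37 and 2.05 in NPC (−1.67 ± 0.41, adjusted p = 0.00415), with a TE change of −2.22 ± 0.42 (adjusted p = 6.71e-04). Its NPC libraries held 8, 12 and 9 ribosome-bound counts and would not have passed the low-count filter alone, so these calls rest on the ESC libraries and are given as values only. H1FOO had 1 count in NPC RNA, HILS1 1 count in NPC RNA and H1FNT 1 count on ESC ribosomes.

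The genes whose log2 CPM over the 12 libraries was most like each member's were listed as a description, out of 11859 genes, with values that share libraries, depth and the difference between assays. HIST1H1A lay nearest to ALDOC (Pearson r = 0.978), HIST1H2AH (0.977) and SLC25A4 (0.973), and HIST1H1D to PRDX6 (0.986), HIST1H2BI (0.983) and GLRX3 (0.979). HIST1H1B lay nearest to MRPL49 (0.991) and HIST1H4I (0.987). A core histone gene was thus among the 3 nearest to each of these members. HIST1H1C lay nearest to UQCRH (0.995), CAPNS1 (0.992) and PPP4C (0.9896), and HIST1H1E to PSMB1 (0.990), MDH2 (0.990) and QTRT1 (0.989), with no histone gene among them. H1F0 was nearest to LHX5 (0.991), IER5L (0.990) and DLK1 (0.988), and H1FX to SIX5 (0.981), CUL9 (0.979) and COG1 (0.979). Between members, r was 0.953 for HIST1H1B and HIST1H1D, 0.839 for HIST1H1C and HIST1H1E, and 0.073 for HIST1H1B and HIST1H1E.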

How the data were processed

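Counts per gene, whole numbers with no normalization, were used as deposited by the authors, in a table of 59050 symbols with 1 column for each of the 12 libraries and no unused column. Per the submitters' processing notes, cutadapt 1.18, Bowtie 1.2, STAR 2.7.1a and featureCounts 1.6.4 were used with hg38/GRCh38. What each tool did, which annotation was counted, whether strand was used and how multi-mapping reads were handled was not given in the sources used here. The HIST1H1 genes share much of their coding sequence, so reads may have been split or dropped between them, and their separate values are uncertain. Total counts were 19529738 to 35117370 per RNA library and 2422756 to 4451196 per ribosome-bound library. No molecular identifiers are named in those sources, so limits and intervals cover counting error only.

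Fits ran over the whole table with edgeR 4.0.16 in R 4.3.3 (TMM, filterByExpr, quasi-likelihood F test, Benjamini-Hochberg, threshold 0.05), per assay for RNA and ribosome-bound RNA and over all 12 libraries for TE (interaction of assay and state) and its level per state. The SE is the log2 change divided by the square root of F. DESeq2 1.42.0, RLE scaling, total counts only, no filter (at least 1 count), a replicate block, each library left out and a shared fit were the alternatives. Tests were checked on simulated counts. Gene spans and promoter windows came from RefSeq GRCh38.p14 (7 and 6 of 7 members matched). Likeness was Pearson's r of log2(CPM + 1). Python 3.11.15 with numpy 2.4.6, pandas 2.3.3 and matplotlib 3.10.9 made the tables and plots. The text names all members, the germline H1 genes, at most 2 rises and 2 falls past the threshold per list, and the 3 nearest genes of each member, of which 1 is not reported here. Members and lists were chosen with earlier results of these data known. The labels do not say that libraries came from separate cultures, so p-values measure the spread between these libraries, which may be technical. Deviations from the group means of same-numbered RNA libraries of ESC and NPC correlated across genes at 0.322, 0.215 and 0.529. Differently numbered libraries were not set against each other across the states, so whether the title numbers pair RNA libraries is not settled. The main RNA fit had no replicate block, and the block was run as an alternative.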

Additional observations from a re-analysis of the deposited data

Results flagged for a closer look

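The change between states differed between the assays in all 5 replication-dependent H1 genes, by the interaction of assay and state over the 12 libraries. The ribosome-bound change minus the RNA change, as a fitted log2 value, was −3.22 for HIST1H1A, −3.11 for HIST1H1B, −3.10 for HIST1H1C, −2.55 for HIST1H1D and −1.98 for HIST1H1E, with edgeR adjusted p-values of 2.82e-04, 5.21e-06, 2.15e-06, 2.76e-06 and 0.00131. HIST1H1A had 2 or 3 ribosome-bound counts per NPC library and would not have passed the low-count filter on those alone, so the count without it is 4 of 4. The share of all 11866 genes tested that was called lower in that interaction was 19.0%. Groups held 3 libraries, too few to test for a single outlying library.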

How the results depend on the processing

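All 7 members kept their ribosome-bound calls and directions under the 12 alternatives run, and the 5 HIST1H1 genes their TE calls under 17. In RNA, HIST1H1D, H1F0 and H1FX kept theirs under 12. With a library left out in turn, RNA changes ranged from −1.25 to −0.85 for HIST1H1A, −1.02 to −0.50 for HIST1H1B, −0.70 to −0.27 for HIST1H1C and −0.67 to −0.0742 for HIST1H1E, and the TE change of H1FX from −0.36 to 0.0859. HIST1H1B passed in RNA with DESeq2 (−0.76, adjusted p = 0.0140), RLE scaling (−0.76, 0.0392), no filter (−0.73, 0.00122), the replicate block (−0.66, 0.0177) and the 12-library fit (−0.69, 0.0181), and HIST1H1C with no filter (−0.47, 0.0259). The number of HIST1H1 genes called lower in RNA was 2 with all libraries, 1 without NPC replicate 2, 3 with DESeq2, RLE scaling, the block or the 12-library fit, 4 with no filter and 5 without ESC replicate 3. The share of all genes called lower under these settings was 26.2%, 21.0% without NPC replicate 2, 23.5% to 27.4% for the group of 4 settings, 15.7% with no filter and 34.7% without ESC replicate 3. The causes were not tested. In the 12-library fit 2600 genes were higher and 2790 lower in RNA (4913 and 4878 in the separate fit). With no filter 6865 genes were lower for TE within ESC and 5998 within NPC (4454 and 3950 with it). The TE of HIST1H1C within NPC turned to −0.0166 with total counts only, which moved the median of all genes by −0.20 there and by −0.18 within ESC; RLE scaling and DESeq2 moved it by 0.15 within ESC. Within ESC the TE calls of HIST1H1B and H1FX ended under 6 and 8 of 17 alternatives (adjusted p up to 0.164 and 0.176), and within NPC that of HIST1H1A under 6 (up to 0.140). Without division by length the HIST1H1 shares were 93.6% (ESC) and 74.6% (NPC) in RNA and 98.2% and 66.9% on ribosomes. Coding length in place of gene span was not run.

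Apart from HIST1H1B and HIST1H1T in RNA, and H1FX within ESC (adjusted p = 0.0521), the replicate block changed no call of a member or of HIST1H1T. Same-numbered ribosome-bound libraries of ESC and NPC correlated at −0.166, −0.259 and −0.00713, and same-numbered libraries of the 2 assays at −0.125 to 0.141 within a state and −0.163 to 0.0510 across states, so these numbers were not taken to pair samples. With the block 3574 genes were higher and 3191 lower on ribosomes and 2635 and 2154 for TE. Ribosome-bound depth limits HIST1H1A, which had 2 or 3 counts per NPC library.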
